A study of Mus musculus with 8 samples.

Results

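A set of 10 genes of the actin cytoskeleton was followed in mouse MDSCs (myeloid-derived suppressor cells), which dampen T cell responses, in culture. They were Actb, Actg1, Cfl1, Pfn1, Coro1a, Arpc2, Arpc1b, Tmsb4x, Was and Lcp1, 10 of the 26930 genes in the count table, and all 10 had enough counts to be tested. They were chosen by name as abundant leukocyte actin regulators, selected on their measured levels and their difference between treated and untreated cells in these libraries. Both are therefore given below as a description, with no p-value, and counts of these genes past a threshold stand only beside the share of all genes that passed it. The Romidepsin group (n = 4 libraries) was exposed for 6 h to 0.5 µM Romidepsin, an inhibitor of histone deacetylases, and the Untreated group (n = 4) received none. Cells of both groups were grown from C57BL/6 bone marrow with the cytokines IL-6 and GM-CSF, each at 40 ng/ml, and on day 4 were moved into medium conditioned by TRAMP-C1 cells, a mouse prostate tumour line. The labels call the cells senescent-like. They name no separate animals or cultures, so a p-value reflects only how these libraries vary, which may be technical.

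Actin monomers assemble into filaments that give a leukocyte its shape, drive its crawling and let it engulf particles. Profilin and thymosin beta-4 hold the monomer pool, the ARP2/3 complex starts branches when WASP family proteins activate it, cofilin cuts old filaments, and coronins and plastins tune and bundle the network. Genes for the actins themselves are classical targets of the transcription factor SRF, which works with cofactors that sense the level of free monomer.

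Total counts per library ranged from 12996892 to 23176949. Within each group the libraries were alike in log2 CPM, except Romidepsin replicate 3, which correlated at a mean r of 0.949 with untreated libraries and 0.921 with the other Romidepsin libraries. Results are therefore also given without it, and without both libraries of number 3. The summed level of 12 myeloid markers, all of them expressed, among them Lyz2, S100a8 and Itgam, was 13952 to 33168 CPM in Romidepsin libraries and 40653 to 47225 CPM in untreated ones. Lyz2 alone, at a mean of 25823 CPM over all libraries, made up most of this sum on average, so the sum says little about the other markers. Of these 12 markers edgeR called 2 lower, Fcgr3 and Spi1, DESeq2 7 and limma-voom 3, and 5, 9 and 9 were lower at an unadjusted p under 0.05. None was higher by any of the 3 tools, adjusted or not. Over all tested genes edgeR called 16.2% lower (2080 genes), near its share of these markers. Of the same 12852 genes limma-voom called 2408 lower. DESeq2 called 2874 genes lower, but the number of genes it adjusted over is not given here, so its count of markers has no matching share. Shares over all genes at an unadjusted p are not given, so nothing is read from the unadjusted counts of markers. Markers of B cells were also lower (summed level 18.4 to 79.6 CPM in Romidepsin libraries and 92.5 to 314 CPM in untreated ones, 5 of 6 called lower by edgeR, beside the same 16.2%). T and NK cell markers summed to 4.90 to 10.4 CPM in Romidepsin and 7.74 to 29.7 CPM in untreated libraries, with Trac, Ncr1 and Klrb1c below 1 CPM in every library, erythroid markers to at most 0.986 CPM in any library, and mast cell markers to at most 22.8 CPM. Platelet markers, led by Pf4, summed to 358 to 823 CPM in Romidepsin and 367 to 888 CPM in untreated libraries, stromal markers to 16.5 to 210.0 CPM in Romidepsin and 17.6 to 76.2 CPM in untreated ones, and endothelial markers to 39.6 to 59.7 CPM in Romidepsin and 44.7 to 79.5 CPM in untreated ones. The part of these shifts in the results below was not tested. In bulk RNA, fewer cells of a type and less RNA per cell cannot be told apart.

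Of the 10 genes, 9 were lower in Romidepsin-treated cells, with log2 fold changes of −1.59 to −0.74, and for 8 of them every Romidepsin library lay below every untreated library. Tmsb4x was lower with overlapping groups, and Actg1 showed no difference beyond its spread. The median log2 fold change over the 10 genes was −1.03, beside 0.01 over all 12852 genes tested and −0.31 over the 2153 of them with a mean of at least 100 CPM. By edgeR's quasi-likelihood test across all genes 7 of the 10 were called lower, beside 16.2% of all tested genes and 23.3% of those with a mean of at least 100 CPM. Groups that did not overlap and were lower after Romidepsin were found for 16.5% of all tested genes and 24.2% of the abundant ones. Since the 10 genes were chosen with this contrast known, nothing is read from these counts. They also depended on single libraries: 4 of the 10 were called when Romidepsin replicate 1 or 2 or untreated replicate 2 or 3 was left out, and 9 without Romidepsin replicate 3, beside 9.46%, 10.1%, 10.9%, 9.6% and 23.4% of all tested genes lower in these fits. With the replicate number as a block 8 were called, beside 20.8% of all tested genes lower. Levels are given as TMM-scaled CPM, in which a count is divided by the library total after adjustment for composition, and fold changes are log2 values of Romidepsin over untreated cells, given with the SE (standard error).

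**Figure D1:**
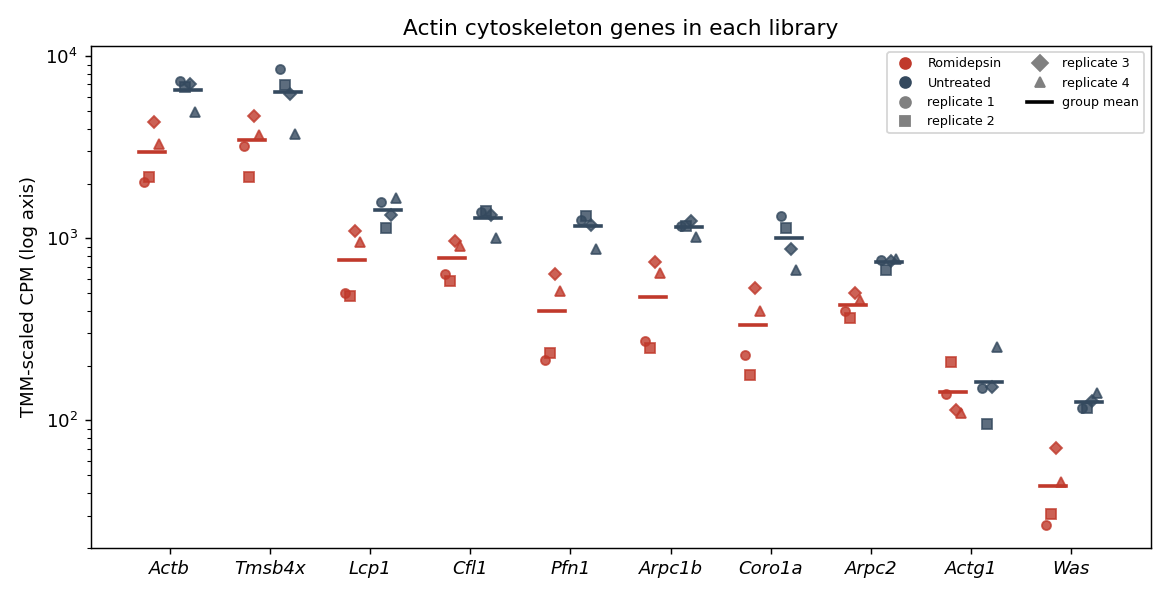
TMM-scaled CPM on a log axis of each of the 10 genes in every library, Romidepsin (red, left) and untreated (dark, right), with marker shape giving the replicate number and bars the group mean (n = 4 each). For 8 genes no Romidepsin library reaches the lowest untreated one, Tmsb4x and Actg1 overlap, and Romidepsin replicates 3 and 4 lie above replicates 1 and 2 for every gene but Actg1.

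Actb (chromosome 5, 142903115 to 142906754, GRCm38) encodes beta-actin, the main cytoplasmic actin. It had 2031, 2159, 4341 and 3316 CPM in Romidepsin replicates 1 to 4, against 7352, 6762, 7041 and 4912 CPM in untreated replicates 1 to 4. The groups did not overlap, and Romidepsin replicate 3 was the closest to the untreated range. The fitted log2 fold change was −1.14 ± 0.32 (SE), a 2.20-fold lower level.

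Actg1 (chromosome 11, 120345690 to 120348542) encodes gamma-actin, the other cytoplasmic isoform. Its values were 140.2, 209, 114 and 109 CPM in Romidepsin replicates 1 to 4 and 151, 95.1, 152 and 253 CPM in untreated ones. The Romidepsin values lay inside the range of the untreated ones, and the highest value of each group came from a different replicate number, 2 in Romidepsin and 4 in untreated cells. The log2 fold change was −0.19 ± 0.32, and it was 0.11 without untreated replicate 4. It was 0.14 with library size scaling and 0.0021 with scaling to housekeeping genes, which shift all genes upward, and relative to the median of all genes it was −0.16 and −0.20 there, beside −0.19 with TMM. Of the distinct 75-base stretches of annotated Actg1 transcripts, 33.5% also occur in transcripts of other annotated genes, among them Gm12715 and the pseudogene Actg-ps1, beside 1.58% for Actb. How such reads were counted is not given in the sources used here, so the level of Actg1 is uncertain. It also shares exon sequence on its own strand with Mir6935 and Gm23419.

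The promoters of Actg1 and Coro1a, the genes with the smallest and the largest difference, are shown. Of the 9 members that could be searched, Actg1 alone carries a match to the CArG box, the element bound by SRF. Actb could not be searched. RefSeq's table (GRCm38.p6) held 250-base windows before the start for 9 of the 10 genes, all but Actb. A CArG box match on either strand was found in 1 of the 9 genes and in 1.47% of all 32851 windows. The GC box GGGCGG, searched on both strands, was found for 7 of the 9 genes and in 32.7% of all windows. The sequence GAGGAA, a narrow form of the ETS motif, was found for none of the 9 and in 23.3% of all windows. Other forms of the ETS motif, which shares the shorter core GGAA, were not searched. A gene counted with a match in any of its windows, and Coro1a and Lcp1 have 2 each, while the share over all counts single windows. Matches of these motifs may overlap others in GC-rich sequence, and a match is a description, not a site. The Actg1 stretch ends before the first annotated exon base in its window, and the Coro1a window shown holds no annotated exon base of that gene. Both run 5′ to 3′ on the minus strand. RefSeq gives Coro1a 2 windows, of which the upstream one is shown, and its start lies inside the span that GENCODE gives the gene.
Actg1, chr11:120348543-120348745, capitals mark the CArG box match: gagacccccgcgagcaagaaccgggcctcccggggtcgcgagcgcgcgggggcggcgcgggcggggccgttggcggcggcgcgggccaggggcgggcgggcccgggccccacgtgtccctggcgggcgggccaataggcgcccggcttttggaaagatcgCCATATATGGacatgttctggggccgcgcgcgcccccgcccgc
Coro1a, chr7:126704817-126705066, capitals mark the GC box match: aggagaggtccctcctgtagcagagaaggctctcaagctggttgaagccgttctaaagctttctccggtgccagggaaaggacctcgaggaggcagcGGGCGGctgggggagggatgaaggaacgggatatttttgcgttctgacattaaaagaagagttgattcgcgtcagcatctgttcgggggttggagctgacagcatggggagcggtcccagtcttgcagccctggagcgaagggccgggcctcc

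Pfn1 (chromosome 11, 70651850 to 70654644) encodes profilin 1, which loads monomers onto growing filament ends. It had 215, 234, 638 and 513 CPM in Romidepsin replicates 1 to 4, against 1264, 1322, 1182 and 878 CPM in untreated replicates. All Romidepsin libraries lay below all untreated ones, and replicates 1 and 2 were the lowest by a wide margin (log2 fold change −1.54 ± 0.38, a 2.90-fold lower level).

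Tmsb4x (chromosome X, 167207093 to 167209315) encodes thymosin beta-4, a small peptide that sequesters monomers. Romidepsin replicates 1 to 4 held 3224, 2163, 4715 and 3684 CPM, and untreated replicates 8539, 6976, 6191 and 3739 CPM. The groups overlapped because Romidepsin replicate 3 lay above untreated replicate 4, the lowest untreated library (log2 fold change −0.88 ± 0.35). Without Romidepsin replicate 3 the value was −1.09.

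Cfl1 (chromosome 19, 5490455 to 5495201) encodes cofilin 1, which severs filaments. It had 634, 581, 972 and 913 CPM in Romidepsin replicates, against 1396, 1415, 1346 and 1006 CPM in untreated ones. The groups were separate by a narrow margin, 972 CPM in Romidepsin against 1006 CPM in untreated cells, and its log2 fold change of −0.74 ± 0.25 was the smallest of the 9 lower genes. Snx32 overlaps its exons on the opposite strand.

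Arpc2 (chromosome 1, 74236084 to 74268209) and Arpc1b (chromosome 5, 145114215 to 145130705) encode subunits of the ARP2/3 complex. Arpc2 had 398, 364, 501 and 456 CPM in Romidepsin replicates and 759, 674, 748 and 768 CPM in untreated ones. It was the most even gene within the groups, and they did not overlap (log2 fold change −0.78 ± 0.19). Arpc1b, the form of the p41 subunit that prevails in blood cells, had 274, 249.997, 742 and 641 CPM in Romidepsin replicates, against 1166, 1170.4, 1251 and 1018 CPM in untreated ones. Here Romidepsin replicates 3 and 4 lay far above replicates 1 and 2, yet below every untreated library (log2 fold change −1.27 ± 0.37). Pdap1 overlaps Arpc1b on the opposite strand.

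Was (chromosome X, 8081453 to 8090498) encodes WASP, the blood cell activator of ARP2/3 that is mutated in Wiskott-Aldrich syndrome. It was the least abundant of the 10 genes, with 465 to 2930 counts per library. Its values were 26.7, 30.4, 70.6 and 46.1 CPM in Romidepsin replicates and 118, 117, 128 and 142 CPM in untreated ones. The untreated libraries were close to each other and all lay above the Romidepsin libraries (log2 fold change −1.54 ± 0.29, a 2.91-fold lower level).

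Coro1a (chromosome 7, 126699773 to 126707787) encodes coronin 1A, a filament-binding protein of haematopoietic cells. It had 229, 177, 535 and 399 CPM in Romidepsin replicates, against 1333, 1145, 876 and 666 CPM in untreated ones. The groups were separate, and the log2 fold change of −1.59 ± 0.39 was the lowest of the 10 with TMM scaling. Lcp1 (chromosome 14, 75131101 to 75230842) encodes L-plastin, which bundles filaments in leukocytes, and had 503, 481, 1099 and 953 CPM in Romidepsin replicates, against 1592, 1142, 1344 and 1657 CPM in untreated ones. Its groups were separate at 1099 CPM in Romidepsin against 1142 CPM in untreated cells (log2 fold change −0.92 ± 0.32). Bola2 overlaps Coro1a, and Gm15628 and Gm15629 overlap Lcp1, on the opposite strand.

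To compare levels between genes, CPM were divided by the length of the longest APPRIS principal transcript, the annotation's main isoform. In Romidepsin cells the order per kilobase was Tmsb4x (4488 ± 1379 CPM per kilobase, SD, n = 4), Actb (1543 ± 566), Pfn1 (465 ± 243), Cfl1 (329 ± 83.2), Arpc2 (298 ± 42.4), Lcp1 (198 ± 81.8), Coro1a (192 ± 93.8), Arpc1b (154 ± 81.1), Actg1 (73.3 ± 23.5) and Was (20.6 ± 9.45). In untreated cells it was Tmsb4x (8283 ± 2607 CPM per kilobase), Actb (3394 ± 571), Pfn1 (1349 ± 229.5), Coro1a (575 ± 168), Cfl1 (548 ± 81.5), Arpc2 (512 ± 29.8), Lcp1 (373 ± 61.6), Arpc1b (371 ± 31.3), Actg1 (83.5 ± 33.7) and Was (59.7 ± 5.46). With this length Coro1a had rank 7 after Romidepsin and rank 4 in untreated cells, but with lengths that use all annotated exons it had rank 6 in both groups. Neighbours from Pfn1 to Actg1 overlapped in Romidepsin cells, while in untreated cells the overlapping neighbours were Coro1a with Cfl1, Cfl1 with Arpc2, Lcp1 with Arpc1b and Actg1 with Was. Those lengths also gave Pfn1 rank 5 in Romidepsin cells and Lcp1 rank 8 in both groups, so the order between Pfn1 and Arpc1b depends on the length used, while Tmsb4x and Actb stayed on top and Actg1 and Was at the bottom.

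Summed over the 10 genes, the share of all counts in a library does not depend on any scaling factor. It was 0.914%, 0.791%, 1.35% and 1.19% in Romidepsin replicates 1 to 4, against 2.28%, 1.91%, 1.69% and 1.34% in untreated ones. The mean was 1.06 ± 0.253% in Romidepsin and 1.81 ± 0.392% in untreated libraries (SD, n = 4 each), and the groups met at Romidepsin replicate 3 and untreated replicate 4. Actb and Tmsb4x made up most of the share in every library. They held 0.426% and 0.463% of counts in Romidepsin replicate 3 and 0.438% and 0.334% in untreated replicate 4. Like library size scaling, the share is not adjusted for composition.

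Because these genes are abundant, their fold changes were recomputed under 5 other scalings. The median of the 10 was −1.03 with TMM computed without any actin gene, −1.06 with DESeq2 size factors, −0.97 with upper-quartile factors, −0.80 with the summed counts of 11 housekeeping genes that include no actin gene, and −0.77 with library size alone. Housekeeping and library size scaling moved the median of all tested genes by 0.20 and 0.30. Relative to the median of all genes, the 10 genes lay at −1.01 and −1.07 under these scalings, beside −1.03 with TMM. The 9 genes other than Actg1 stayed below 0 under all 6 scalings, and their order changed little: Coro1a was lowest and Cfl1 highest of the 9 in each. The number of the 10 genes called lower was 6 with library size and 3 with housekeeping scaling, beside 10.6% and 7.8% of all tested genes.

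**Figure D2:**
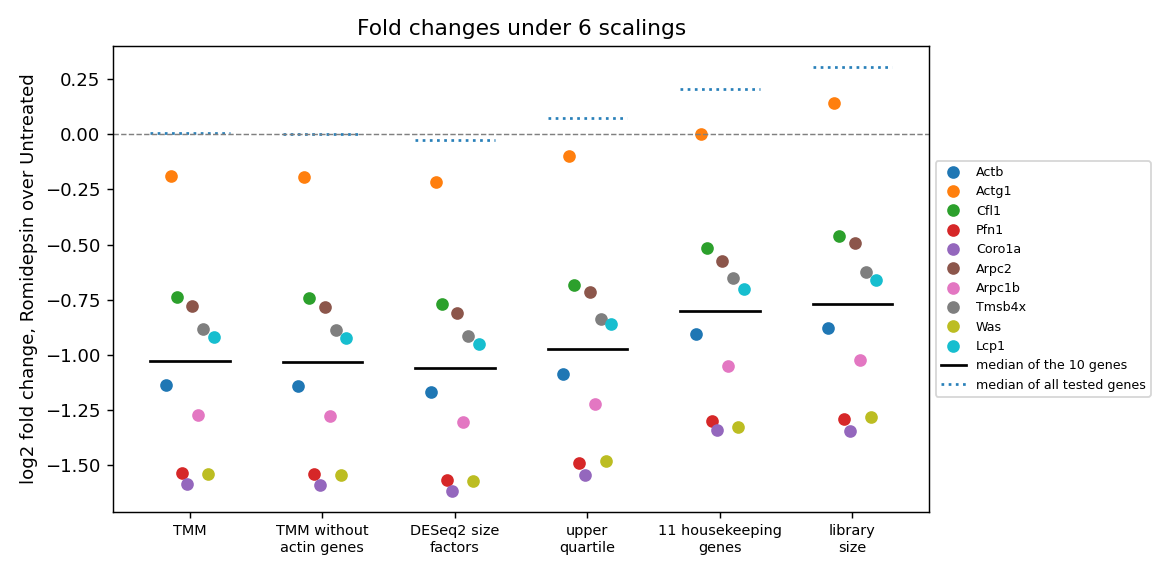
Log2 fold change (Romidepsin over untreated) of each of the 10 genes under 6 scalings, with the median of the 10 (solid line) and of all tested genes (dotted line). The median of the 10 lies between −1.06 and −0.77, and Actg1 is the only gene to reach 0 or above, with housekeeping and library size scaling, where the median of all genes is also above 0.

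Ratios within a library are free of scaling, and Actb served as the denominator. Relative to Actb, Pfn1 was lower after Romidepsin (log2 ratio −2.97 ± 0.29 in Romidepsin and −2.49 ± 0.10 in untreated libraries, SD, n = 4), as was Coro1a (−3.21 ± 0.27 in Romidepsin and −2.73 ± 0.26 in untreated libraries). Cfl1 was higher relative to Actb (−1.90 ± 0.20 in Romidepsin and −2.33 ± 0.07 in untreated libraries). For these 3 ratios the groups did not overlap. For the other 6 genes they did, with differences of 1.04 for Actg1, 0.40 for Arpc2, 0.31 for Tmsb4x, 0.19 for Lcp1, −0.24 for Arpc1b and −0.45 for Was.

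The libraries share replicate numbers between the groups. Over all tested genes, deviations of same-numbered libraries from their group means correlated at 0.104 to 0.525. For the 10 genes, the mean log2 deviation was −0.37, −0.41, 0.53 and 0.25 in Romidepsin replicates 1 to 4. In untreated replicates 1 to 4 it was 0.15, −0.03, 0.02 and −0.14, with signs opposite to Romidepsin in numbers 1 and 4. Within number 1 the median log2 difference of the 10 genes was −1.76, within number 2 it was −1.67, within number 3 −0.64 and within number 4 −0.75, while the median of all tested genes was between −0.005 and 0.02 in every pair. All 10 genes were lower in numbers 1, 3 and 4. In number 2, 9 were lower and Actg1 was higher by 1.14. Actb differed by −1.86, −1.65, −0.70 and −0.57 in numbers 1 to 4, and Tmsb4x by −1.41, −1.69, −0.39 and −0.02. The summed myeloid markers, a sum led by Lyz2, followed the same split, at 17123 and 13952 CPM in Romidepsin replicates 1 and 2 and 33168 and 29542 CPM in replicates 3 and 4. Their part in the result was not tested. Without Romidepsin replicate 3 the median log2 fold change of the 10 genes was −1.28, and without both libraries of number 3 it was −1.26.

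**Figure D3:**
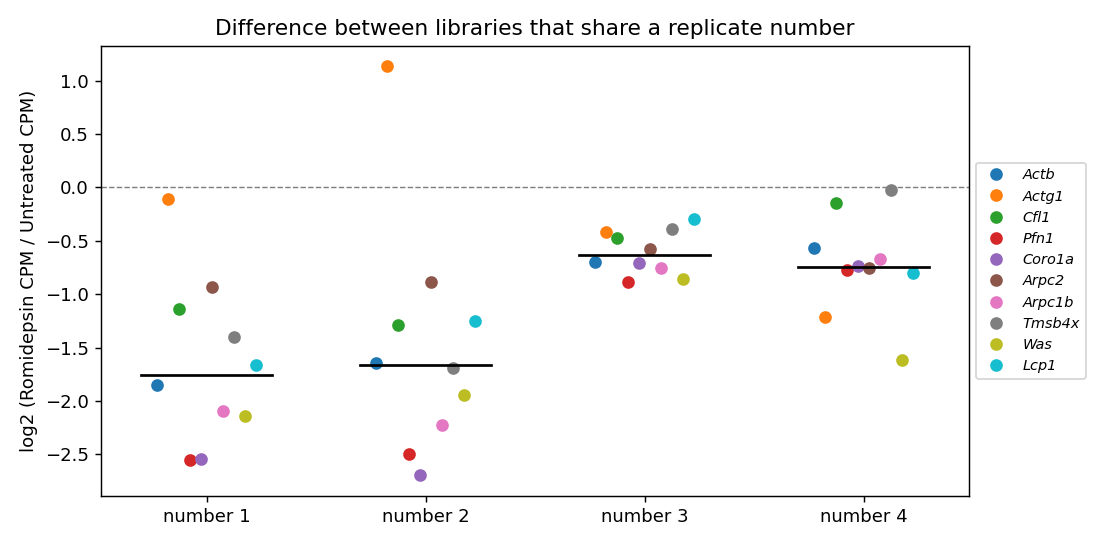
Log2 ratio of Romidepsin to untreated CPM for each of the 10 genes (colours) within libraries that share a replicate number, with the median of the 10 as a bar. Numbers 1 and 2 centre at −1.76 and −1.67, and numbers 3 and 4 at −0.64 and −0.75.

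Around the mean of each group, which leaves any differences in response among the Romidepsin libraries in place, 9 of the genes varied together. Pearson's r of their log2 deviations from the group mean across the 8 libraries was 0.39 to 0.97 (median 0.85) over the 36 pairs of genes without Actg1, with the highest value between Actb and Pfn1. Actg1 ran the other way, at −0.82 to −0.20 with the other 9. The points share the depth and scaling factor of their library, and Romidepsin libraries, which deviated by −0.41 to 0.53 on average, weigh more than untreated ones at −0.14 to 0.15. Among 8915 genes outside the actin lists with a mean of at least 10 CPM, the mean deviation of the 10 genes was followed most closely by Ifitm6 (r = 0.998), Cwc27 (0.995), Slc25a5 (0.993), Nbdy (0.992) and Lsp1 (0.990). Lsp1, which encodes a filament-binding protein of leukocytes, had 255 ± 172 CPM in Romidepsin and 745 ± 164 CPM in untreated cells (SD, n = 4), and Ifitm6 66.8 ± 79.1 CPM in Romidepsin and 171 ± 60.8 CPM in untreated cells. Log2 fold changes were −1.36 ± 0.84 for Ifitm6, −0.23 ± 0.22 for Cwc27, −0.63 ± 0.21 for Slc25a5, −0.17 ± 0.28 for Nbdy and −1.55 ± 0.47 for Lsp1 (SE). By edgeR only Slc25a5 and Lsp1 passed (adjusted p = 0.0439 and 0.0301).

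Members were also set beside related genes. A total of 11 pairs of a member and a relative, chosen after the values were seen, were compared as log2 ratios of counts within each library. Pfn1 exceeded Pfn2, a profilin best known from neurons, by 3.90 ± 1.68 in Romidepsin and 10.8 ± 0.64 in untreated libraries (SD, n = 4). Was exceeded Wasl, the widely expressed relative, by 0.55 ± 0.56 in Romidepsin and 2.28 ± 0.04 in untreated libraries, with Wasl itself at 27.6 CPM in Romidepsin and 26.0 CPM in untreated cells. Both ratios were separate between the groups, as were those of Cfl1 to Dstn (1.78 ± 0.80 in Romidepsin and 3.30 ± 0.43 in untreated libraries), Cfl1 to Cfl2 (5.17 ± 0.12 in Romidepsin and 5.81 ± 0.11 in untreated libraries), Arpc1b to Arpc1a (2.501 ± 0.76 in Romidepsin and 3.53 ± 0.08 in untreated libraries), Tmsb4x to Tmsb10 (2.68 ± 0.12 in Romidepsin and 3.37 ± 0.31 in untreated libraries) and Lcp1 to Pls3 (3.82 ± 0.25 in Romidepsin and 4.90 ± 0.56 in untreated libraries). In each of these 7 pairs the member stood lower against its relative after Romidepsin. Members were chosen with their difference known and relatives after their values were seen, so nothing is read from this count. Ratios of Coro1a to Coro1b and Coro1c, of Lcp1 to Pls1 and of Actb to Actg1 differed on average by −1.08, −1.55, −2.06 and −1.04, with overlapping groups.

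**Figure D4:**
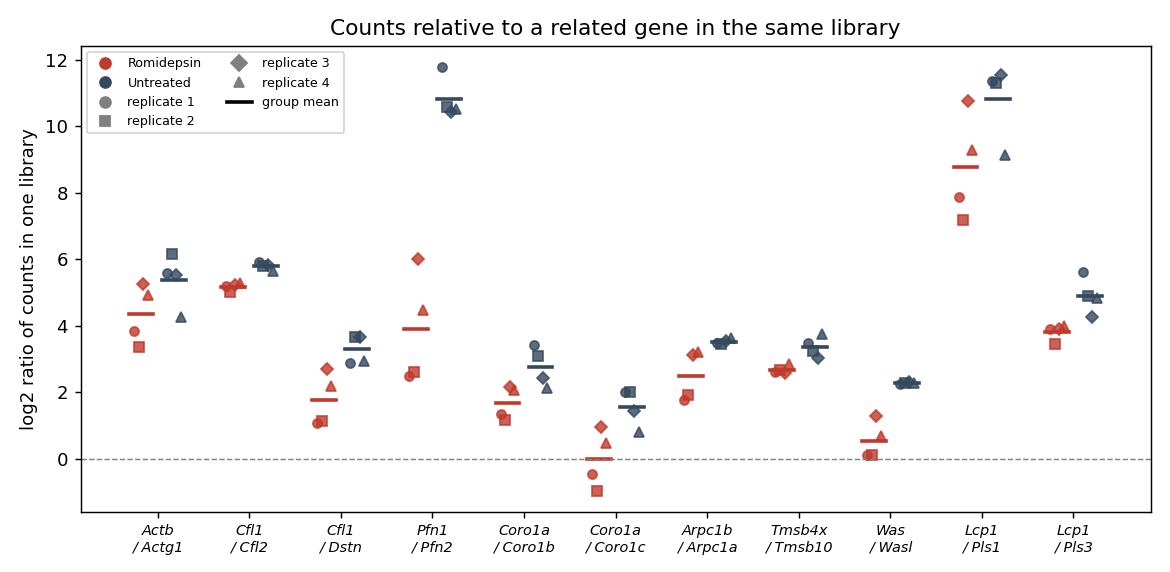
Log2 ratio of the counts of a member to those of a related gene in the same library (0.5 added to each count), Romidepsin red and left, untreated dark and right, bars at the group mean (n = 4 each). The ratio of Pfn1 to Pfn2 moves furthest, to a mean of 3.90 in Romidepsin libraries, against 10.8 in untreated ones.

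Of the relatives, Pfn2 had 38.3, 38.3, 9.80 and 23.03 CPM in Romidepsin replicates, against 0.320 to 0.826 CPM in untreated ones, and no test is given, since its untreated counts alone would not have passed the count filter. Dstn, the cofilin relative destrin, rose to 228 ± 66.6 CPM in Romidepsin cells, against 134 ± 37.5 CPM in untreated cells, with overlapping groups (0.77 ± 0.27, adjusted p = 0.0496, and above 0.05 when any library but Romidepsin replicate 3 or untreated replicate 1 was left out). Coro1b fell (−0.58 ± 0.18, adjusted p = 0.0304), a call lost with housekeeping scaling (adjusted p = 0.211), with library size (adjusted p = 0.130) and when any library but Romidepsin replicate 3 or untreated replicate 1 was left out, and Coro1b shares exon sequence with Ptprcap on its own strand. Wasl, Cfl2, Coro1c, Tmsb10, Arpc1a, Pls1 and Pls3 did not pass the test.

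The wider pathway was followed in 8 lists of 134 other genes, of which 126 could be tested, and 7 of the lists are described below. Of these, 38 fell, 19 rose and 69 did not pass, beside 16.2% of all tested genes lower, 20.3% higher and 36.5% in either direction. The median log2 fold change of the 126 was −0.39, beside 0.01 over all genes and −0.31 over those with a mean of at least 100 CPM, of which 23.3% were lower. The balance depended on the scaling: 28 fell and 23 rose with library size, and 10 fell and 21 rose with housekeeping scaling, so that the share of rises among all calls was 33.3% with TMM, 45.1% with library size and 67.7% with housekeeping genes. Over all tested genes the same share was 55.7%, 74.0% and 75.9%. Of all tested genes, 30.2% were higher with library size and 24.6% with housekeeping scaling. Leaving out Romidepsin replicate 1, 2 or 4 gave 18, 23 and 20 lower genes and leaving out untreated replicate 3 gave 19, beside 9.46%, 10.1%, 9.2% and 9.6% of all tested genes. Without Romidepsin replicate 2 and untreated replicate 3, 12 and 11 genes rose, beside 14.2% and 13.4%. Without Romidepsin replicate 3, 47 fell and 20 rose (of all genes 23.4% lower and 24.5% higher), and without both libraries of number 3, 40 and 18 (18.9% and 20.1%). The fit with the replicate block gave 45 lower and 23 higher (20.8% and 21.2%). Of the 19 rises, 4 were of genes whose untreated libraries alone would not have passed the count filter, Wasf1, Pfn2, Myh10 and Actr3b, as were 484 of the 2610 rises over all tested genes. They had to differ to be tested, which leaves 15 rises without them.

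**Figure D5:**
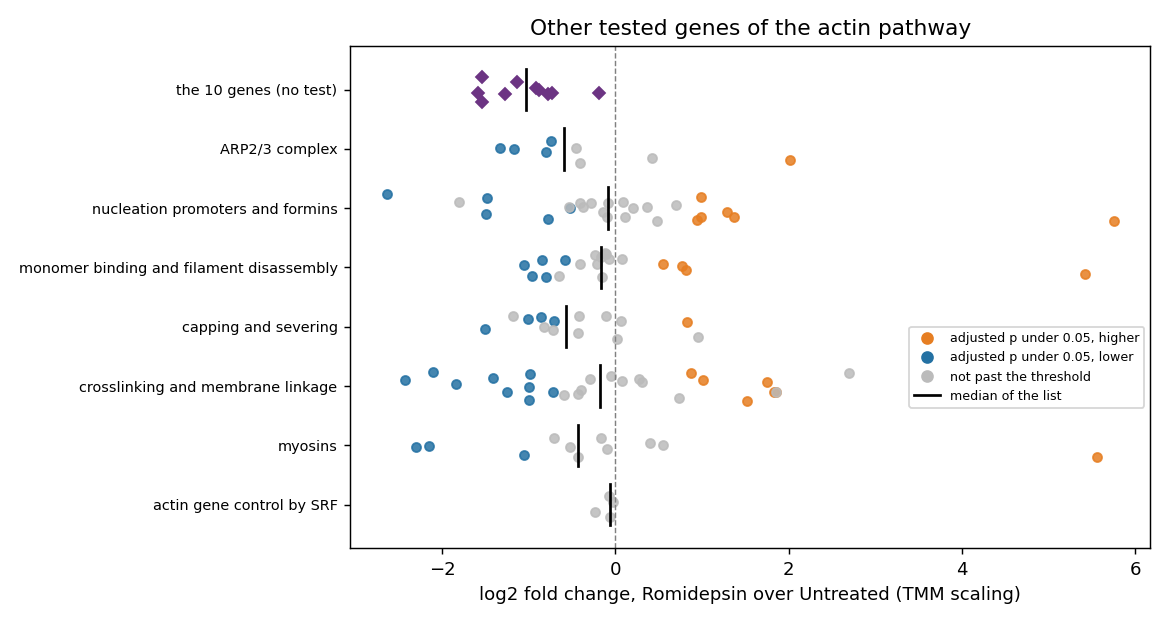
Log2 fold change (Romidepsin over untreated, TMM scaling) of the tested genes in 7 actin pathway lists, coloured by the call at an adjusted p of 0.05, with the median of each list as a bar and the 10 members above as diamonds, which carry no test. Wasf1, Pfn2 and Myh10, nearly absent from untreated cells, lie above 5, and in the ARP2/3 list 4 of 8 genes are lower and 1, Actr3b, is higher. Wasf1, Pfn2, Myh10 and Actr3b are coloured as higher, but they passed the count filter only through Romidepsin libraries, so their colour is not read as a test. Without them the ARP2/3 and myosin lists hold 0 higher genes.

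Of the 8 other ARP2/3 genes, 4 fell, 3 did not pass and 1, Actr3b, was higher, while 1 was lower and 2 were higher with housekeeping scaling. Actr2, which encodes the ARP2 subunit, had 224, 252, 365 and 287 CPM in Romidepsin replicates and 576, 505, 699.5 and 767 CPM in untreated ones. The groups were separate (log2 fold change −1.18 ± 0.23, adjusted p = 0.00633). Actr3, the ARP3 gene, fell by 1.34 ± 0.37 (adjusted p = 0.0211), a call lost with housekeeping scaling (adjusted p = 0.0555) and without Romidepsin replicate 1, 2 or 4 or untreated replicate 3. Arpc4 fell by 0.74 ± 0.16 (adjusted p = 0.00882), a call lost with housekeeping scaling (adjusted p = 0.0611), and it shares exon sequence with Ttll3 on its own strand. Actr3b, an ARP3 relative, had 2.02 ± 0.862 CPM in Romidepsin cells, against 0.491 ± 0.222 CPM in untreated cells, and is given with no test. Arpc3 did not pass (−0.46 ± 0.24, adjusted p = 0.156).

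Among 25 tested nucleation promoters and formins, 5 fell, 6 were higher, Wasf1 among them, and 14 did not pass, while 2 were lower and 6 higher with housekeeping scaling. Wasf1, a WAVE gene best known from brain, had 14.0, 14.5, 2.38 and 9.77 CPM in Romidepsin replicates, against 0.0967 to 0.330 CPM in untreated ones. Every Romidepsin library lay above every untreated one, and no test is given for Wasf1 for the same reason. Abi2, a WAVE complex subunit, rose to 29.1 ± 1.58 CPM in Romidepsin cells, against 12.0 ± 2.64 CPM in untreated cells (1.28 ± 0.20, adjusted p = 0.00251), and the formin Fmnl2 rose by 1.37 ± 0.26 (adjusted p = 0.00544). Wipf1, which encodes the partner that stabilises WASP, fell to 76.7 ± 36.5 CPM in Romidepsin cells, against 217 ± 50.8 CPM in untreated cells (−1.5003 ± 0.33, adjusted p = 0.00972). Nckap1l, the haematopoietic WAVE subunit, did not pass (−0.42 ± 0.28, adjusted p = 0.259).

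Of 19 tested genes for monomer binding and filament disassembly, 5 fell, 4 were higher, Pfn2 among them, and 10 did not pass, while 1 was lower and 4 were higher with housekeeping scaling. Wdr1, whose product works with cofilin in disassembly, fell to 187 ± 26.7 CPM in Romidepsin cells, against 366 ± 40.3 CPM in untreated cells (−0.97 ± 0.18, adjusted p = 0.00521). Gmfb, which encodes a factor that removes filament branches, fell by 0.85 ± 0.19 (adjusted p = 0.0103), and Ssh1, a phosphatase that activates cofilin, by 0.80 ± 0.20 (adjusted p = 0.0155). With housekeeping scaling the calls of Gmfb and Ssh1 were lost (adjusted p = 0.0648 and 0.107). Cap1, an actin recycling factor, did not pass (−0.65 ± 0.24, adjusted p = 0.0564), though it did with the replicate block (adjusted p = 0.0352). It also passed in DESeq2 (adjusted p = 0.0148), in limma-voom (0.0416) and without Romidepsin replicate 3 (0.0225). With library size and housekeeping scaling it did not pass (adjusted p = 0.164 and 0.223).

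Of 14 capping and severing genes, 4 fell, 1 rose and 9 did not pass, while 1 was lower and 1 higher with housekeeping scaling. Flii, a gelsolin family gene that overlaps Llgl1 on the other strand, fell to 105 ± 13.1 CPM in Romidepsin cells, against 212 ± 49.0 CPM in untreated cells (−1.01 ± 0.20, adjusted p = 0.00633). Capza2, a capping protein subunit, fell by 0.86 ± 0.23 (adjusted p = 0.0199), a call lost with housekeeping scaling (adjusted p = 0.0991) and without Romidepsin replicate 1, 2 or 4 or untreated replicate 3. Gsn, the gelsolin gene, was at 729 ± 99.4 CPM in Romidepsin and 722 ± 181 CPM in untreated cells (0.01 ± 0.24, adjusted p = 0.969).

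Of 26 genes for crosslinking and membrane linkage, 9 fell, 6 rose and 11 did not pass, while 1 fell and 6 rose with housekeeping scaling. The focal adhesion genes Zyx and Tln1 fell (log2 fold changes −1.001 ± 0.23 and −1.41 ± 0.36, adjusted p = 0.0111 and 0.0168), as did Vasp, a filament elongation factor (−0.996 ± 0.25, adjusted p = 0.0144). Vcl, another focal adhesion gene, rose (1.83 ± 0.36, adjusted p = 0.00624), also with housekeeping scaling (adjusted p = 0.00669). With housekeeping scaling the calls of Zyx and Vasp were lost (adjusted p = 0.0575 and 0.0597), and Tln1 was at 0.04998. Ezr, which encodes ezrin, rose to 232 ± 31.6 CPM in Romidepsin cells, against 115 ± 7.78 CPM in untreated cells (1.01 ± 0.16, adjusted p = 0.00269). Msn, which encodes the related moesin, did not pass (−0.43 ± 0.28, adjusted p = 0.244).

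Of 11 tested myosin genes, 3 fell, 7 did not pass and 1, Myh10, was higher, while 1 was lower and 2 were higher with housekeeping scaling. Myo1g, a leukocyte class I myosin, had 23.4, 27.8, 116 and 59.7 CPM in Romidepsin replicates and 262, 249, 243 and 256 CPM in untreated ones. The groups were far apart (log2 fold change −2.15 ± 0.47, adjusted p = 0.00915), and without Romidepsin replicate 3 the value was −2.79. Myo9b fell by 1.05 ± 0.23 (adjusted p = 0.00988), a call lost with housekeeping scaling (adjusted p = 0.0562). Myh10, a non-muscle myosin II heavy chain, had 9.98, 17.7, 5.43 and 3.95 CPM in Romidepsin replicates, against at most 0.496 CPM in untreated libraries, of which replicates 1 and 3 had a count of 0, and is given with no test. Myh9, the prevailing form here, did not pass (−0.17 ± 0.25, adjusted p = 0.611).

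Of 9 genes listed for the control of actin genes by SRF, 4 could be tested and none passed in edgeR, in DESeq2 or in limma-voom, nor at an unadjusted p under 0.05 in any of them. Mkl1, an SRF cofactor, was at −0.24 ± 0.20 (adjusted p = 0.366).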

How the data were processed

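Poly(A) RNA of 8 libraries was sequenced on a NextSeq 500 after preparation with a NEBNext kit, per the labels' protocols. The authors deposited whole-number read counts for 26930 gene identifiers in all libraries, and nothing was normalized before deposit as far as the values show. FastQC, STAR 2.5.2a, DESeq2 and the build GRCm38 (mm10) are named in the submitters' processing notes, while for the read counter, annotation release, strand setting and filters the entry is: not given in the sources used here. Without a known strand setting, reads from genes that overlap on opposite strands cannot be told apart. Besides those given with the results, such overlaps exist for Wdr1, Cap1, Ezr, Msn, Zyx, Tln1, Vcl, Myo9b, Mkl1, Coro1b, Coro1c, Arpc1a and Cfl2. Symbols were found for 26881 identifiers, and 49 stayed unnamed.

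Counts were tested with edgeR 4.0.16 (R 4.3.3): filterByExpr left 12852 genes, followed by TMM scaling, a robust quasi-likelihood fit with group as the only term, and Benjamini-Hochberg adjustment over all tested genes at a threshold of 0.05. SE is the log2 fold change divided by the square root of F. Alternatives used DESeq2 1.42.0, limma-voom (limma 3.58.1), other scalings, other count filters, the replicate number as a block, and fits without 1 or 2 libraries on the same genes. The script was tested on simulated data. CPM are scaled by TMM, and 0.5 was added to counts in ratios to relatives. Coordinates, exon overlaps, principal transcripts and shared 75-base stretches came from GENCODE M21 (GRCm38). Counts per library ranged from 465 for Was to 106817 for Tmsb4x.

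The labels give no batch. They give replicate numbers 1 to 4 in both groups, and deviations from the group means correlated at 0.104 to 0.525 for the same number and −0.370 to 0.0873 for different numbers. All 4 same-number values lay above the bound of 0.1, that of number 4 only just, at 0.104. The numbers were therefore taken as pairs for the differences within a number and for the fit with a block. This rests on the data and not on a statement in the labels. The reported fit has group as its only term and does not use the pairs.

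The 10 genes and all lists were chosen with earlier results of these data known. From each pathway list the text could name up to 3 called genes of the commoner direction by smallest p, 1 called gene of the rarer direction, and the uncalled gene with the highest mean CPM. Wasl, Tmsb10, Cfl2, Dstn, Coro1b, Coro1c, Arpc1a, Pls1, Pls3, Vcl, Fcgr3 and Spi1 fall outside that rule and were named after their values were seen. Of the 8 pathway lists 1 enters the counts over all lists and is not reported here by itself.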

Additional observations from a re-analysis of the deposited data

Results flagged for a closer look

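In 92 groups of 4 libraries, 2 for each gene that the naming rule picks and 2 for the summed share of the 10 genes, the gap of the highest or lowest library to its neighbour was set against the range of the group. A gap above Dixon's critical value at the 95% level was found in 7 groups, and chance gives about 1 in 20. Among the 10 genes only Cfl1 was found, with 1006 CPM in untreated replicate 4, against 1346 to 1415 CPM in the other untreated libraries. In Romidepsin replicate 3, Actr3b was at 0.728 CPM (2.35 to 2.52 in the other Romidepsin libraries), Gmfb at 77.0 CPM (56.8 to 59.8) and Capza2 at 382 CPM (249.9 to 271). Abi2 was at 26.8 CPM in Romidepsin replicate 1 (29.8 to 30.0 in the others), and Mkl1 at 97.2 CPM in Romidepsin replicate 2 (72.9 to 77.0). Myo9b was at 489 CPM in untreated replicate 4 (283 to 301 in the other untreated libraries).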

How the results depend on the processing

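The median of the 10 genes stayed within the spread of libraries under all 19 alternatives run. Library size scaling left 1368 of all tested genes lower, beside 2080 with TMM, and housekeeping scaling left 1002, with 10 of the other actin genes and 3 of the 10 genes called. The causes were not tested. Leaving out 1 library at a time gave 1183 to 3010 lower and 1716 to 3146 higher genes, 18 to 47 lower and 11 to 20 higher actin genes, 4 to 9 of the 10 genes called, and a median of −1.28 to −0.88. With the replicate block 2719 genes were higher and 2667 lower, 23 actin genes were higher and 45 lower, 8 of the 10 genes were called and their median was −1.10. Direction turned for Actg1 (0.14 with library size, 0.0021 with housekeeping scaling, −0.43 to 0.11 leaving out 1 library), and Mkl1 was at 0.0775 with library size. Library size and housekeeping scaling shift all genes upward, and relative to the median of all genes Actg1 was at −0.16 and −0.20, and Mkl1 at −0.23 with library size. Gsn was at −0.0169 with DESeq2 size factors, −0.0227 in DESeq2, −0.0127 without a count filter, −0.0494 without both libraries of number 3 and −0.0915 to 0.20 leaving out 1 library. Myh9 was at 0.13 with library size, 0.015 with housekeeping scaling and −0.29 to 0.072 leaving out 1 library.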
